A study of Mus musculus with 16 samples.

Results

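The genes described here are mouse zinc finger protein genes, taken by name: every probe whose single annotated gene symbol begins with Zfp and a digit, Zkscan, Zscan, Zbtb or Znf, without Zfp36, Zfp36l1 and Zfp36l2, which bind RNA through another kind of finger. The rule found 189 of 20355 probes and 142 of 9930 genes. By name they comprised 22 Zbtb genes, 9 Zscan or Zkscan genes and 111 Zfp or Znf genes, and 141 are protein coding in RefSeq, while Znf41-ps is a transcribed pseudogene. Since the rule reads names, it also took in Znfx1, an RNA helicase, and Zbtb8os, a partner of the tRNA ligase named for lying on the strand opposite Zbtb8. Enough arrays had values for 151 probes of 120 genes (20 Zbtb, 9 Zscan or Zkscan, 91 Zfp or Znf), and the other 22 genes were set aside, their best probe having 9 to 13 values among the 16 arrays.

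Each array paired RNA of azacytidine-treated cells with RNA of the same line without treatment, in the 2 dyes Cy5 and Cy3, on cDNA probes. Azacytidine is a cytosine analogue that is built into RNA and DNA and traps DNA methyltransferases. There were 8 arrays of Erbb2-transfected NIH3T3 cells at 10 µM, 4 arrays of the same transfected cells at 5 µM and 4 arrays of NIH3T3 cells without the transgene at 10 µM, the first pair of groups asking for the response of the transfected line at each concentration and the last serving as its control. NIH3T3 is an immortal mouse fibroblast line, and Erbb2 is a receptor tyrosine kinase that transforms cells when overproduced. The labels give no treatment time, no clone number and no promoter for the transgene, and do not say whether arrays came from separate cultures, so p-values measure the spread between arrays, which may be technical. The files hold ratios and no signal levels, so the fibroblast identity of the cells, or the level of any gene in them, could not be checked.

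Classical zinc fingers fold around a zinc ion held by a pair of cysteines and a pair of histidines, and arrays of such fingers read DNA sequence. Many of these proteins carry a KRAB domain, which recruits Trim28 and through it the histone methyltransferase Setdb1 and heterochromatin proteins. Zbtb proteins pair through a BTB domain, which in several of them binds corepressor proteins such as Bcor, and Zscan proteins pair through a SCAN domain. Some members depend on DNA methylation for their binding, Zfp57 at imprinted regions and Zbtb38 at methylated CpG sites.

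DNA methylation itself was not measured, but it falls on CpG, so the CpG content of a promoter is the sequence feature that the drug's known target concerns. The 4 promoters shown are those of the members with the lowest p-values in the comparison of the cell lines that have an entry in the RefSeq promoter table. Each is the 250 bases before the annotated start, 5′ to 3′ on the gene's strand, in build GRCm38.p6, with every CpG (CG, the same on both strands) in capitals.
Zbtb22, chr17:33915926-33916175, plus strand: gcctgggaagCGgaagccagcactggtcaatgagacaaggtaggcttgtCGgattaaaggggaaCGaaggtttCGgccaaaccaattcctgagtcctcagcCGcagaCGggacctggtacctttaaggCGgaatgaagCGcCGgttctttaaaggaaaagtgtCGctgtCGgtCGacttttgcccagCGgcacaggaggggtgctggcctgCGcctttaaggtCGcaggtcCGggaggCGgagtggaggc
Zfp503, chr14:21989602-21989851, minus strand: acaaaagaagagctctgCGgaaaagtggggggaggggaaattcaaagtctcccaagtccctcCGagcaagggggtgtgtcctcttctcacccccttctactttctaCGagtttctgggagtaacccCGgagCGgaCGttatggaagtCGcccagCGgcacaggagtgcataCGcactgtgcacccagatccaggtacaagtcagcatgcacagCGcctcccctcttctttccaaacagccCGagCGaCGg
Zfp536, chr7:37769753-37770002, minus strand: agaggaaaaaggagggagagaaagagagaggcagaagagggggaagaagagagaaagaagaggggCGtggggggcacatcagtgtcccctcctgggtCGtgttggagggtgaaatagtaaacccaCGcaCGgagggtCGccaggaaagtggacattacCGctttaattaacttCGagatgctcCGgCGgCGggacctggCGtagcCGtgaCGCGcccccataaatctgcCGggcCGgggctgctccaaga
Zscan10, chr17:23600576-23600825, plus strand: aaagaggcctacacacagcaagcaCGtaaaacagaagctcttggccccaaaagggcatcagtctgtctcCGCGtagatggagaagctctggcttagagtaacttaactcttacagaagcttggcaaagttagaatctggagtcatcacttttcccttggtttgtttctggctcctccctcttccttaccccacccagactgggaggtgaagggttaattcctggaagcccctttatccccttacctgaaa
The windows hold 17 CpG at Zbtb22, 16 at Zfp536, 13 at Zfp503 and 3 at Zscan10. Over all 32851 RefSeq windows of 250 bases, which include genes not measured here, the median was 6 and 92.1% held at least 1 CpG. Over the full promoter entries, which run on past the start, the median was 20 CpG for the 6321 measured genes with an entry and 19 for the 92 measured members with one. In their full entries Zbtb22 and Zfp536 hold 22 CpG each, Zfp503 holds 19 and Zscan10 holds 4. Those 92 are under 80% of the 120 measured members. A comparison of promoter CpG with the response would leave the rest out and is not given.

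All values that follow are log2 ratios, treated over untreated, so that 1 is a doubling. This direction was inferred and is not settled. The deposited ratios do not name their numerator and were read as Cy5 over Cy3. Arrays with the treated RNA in Cy3 were turned. Before turning, arrays of a group sharing a dye arrangement had a mean r of 0.026 (Erbb2, 10 µM), 0.052 (Erbb2, 5 µM) and 0.109 (untransfected). Those of opposite arrangement, where a shared response read as Cy5 over Cy3 would give a negative r, had 0.004, -0.003 and -0.053. Arrays of a group thus agreed weakly, and the correlations do not settle the direction. On the arrays of cells without the transgene both channels carry the same dye label, and the label of channel 1 was used. Fitted values are given with their standard error, from limma with a term for dye, and the adjusted p is Benjamini-Hochberg over 12420 features (7832 named genes and single probes without 1 gene name), called under 0.05.

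Most zinc finger genes had fitted ratios near 0. The median fitted ratio of the 120 members was 0.05 with 10 µM and -0.05 with 5 µM in the Erbb2 line and 0.08 in the untransfected line, beside -0.00, -0.02 and 0.03 over all features. Ratios lay above 0 for 66 members (55%), 49 members (40.8%) and 70 members (58.3%) in that order, against 49.4%, 47.7% and 53.1% of all features. Within 0.5 of 0 lay 98, 103 and 84 of the 120, or 81.7%, 85.8% and 70%, against 81.7%, 80% and 75.2% of all features. The extremes were Zfp444 at 1.93 and Zfp536 at -1.03 at 10 µM, Zkscan17 at 1.30 and Zfp60 at -1.32 at 5 µM, and Zfp365 at 1.79 and Zbtb17 at -1.53 in untransfected cells, none of them called.

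**Figure D1:**
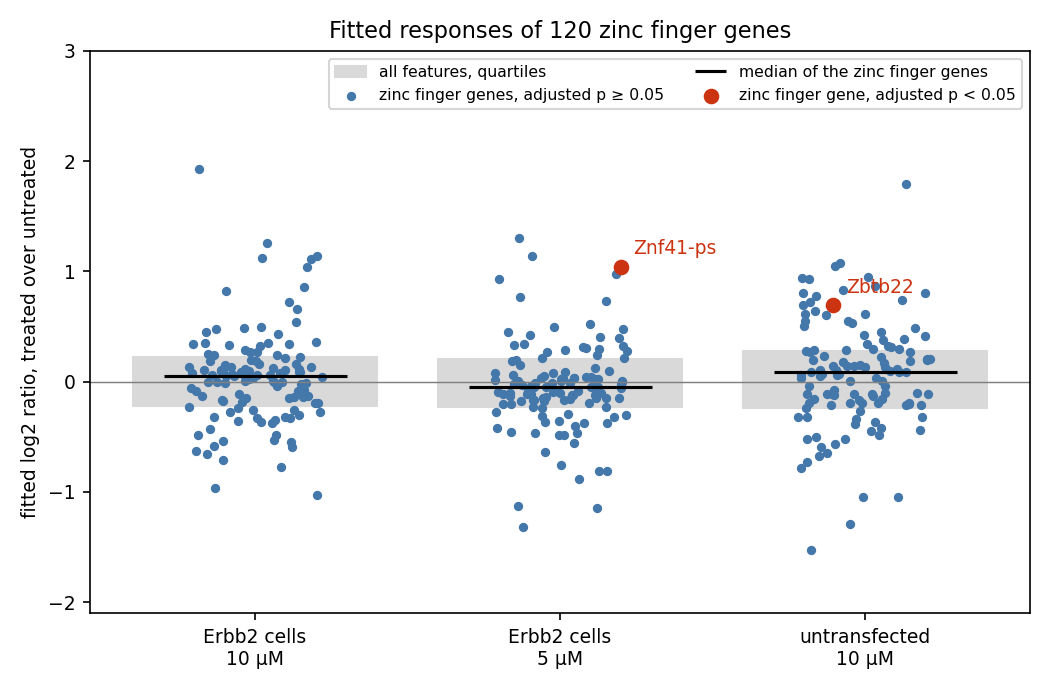
Fitted log2 ratio of each of the 120 measured zinc finger genes (points) in the 3 array groups, with the median of the members (black line) and the quartiles of all features (grey band). Red points passed the test; they are Znf41-ps in Erbb2 cells at 5 µM and Zbtb22 in untransfected cells, and the members' medians stay between -0.05 and 0.08.

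By name class the median fitted ratios lay between -0.17 and 0.13. The 20 Zbtb genes had medians of 0.07 in the Erbb2 line with 10 µM, -0.06 in that line with 5 µM and 0.06 in the untransfected line, and the classes named next follow that order. The 91 Zfp and Znf genes had 0.05, -0.05 and 0.08. The 9 SCAN genes (Zscan and Zkscan) had -0.17, 0.09 and 0.13, with 3, 5 and 7 of the 9 above 0, and their differences were not tested as a set.

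Individual arrays scattered widely around these medians. Of 1849 member values on single arrays, 103 (5.57%) were beyond 2 in size in either direction, against 5.12% over all features. The share of such member values ran from 2.54% to 11.0% by array and was highest on array 8 of Erbb2 cells at 10 µM. On that array 5.68% of all feature values were beyond 2. Over all features the share was highest on array 6 of the same group, at 11.0%, where it was 9.91% of member values. The 95% confidence interval lay wholly within 1 of 0 for 71 of the 120 members with 10 µM (59.2%) and 59 with 5 µM (49.2%) in the Erbb2 line and for 46 in the untransfected line (38.3%), so for the other members a doubling or halving was not bounded.

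**Figure D2:**
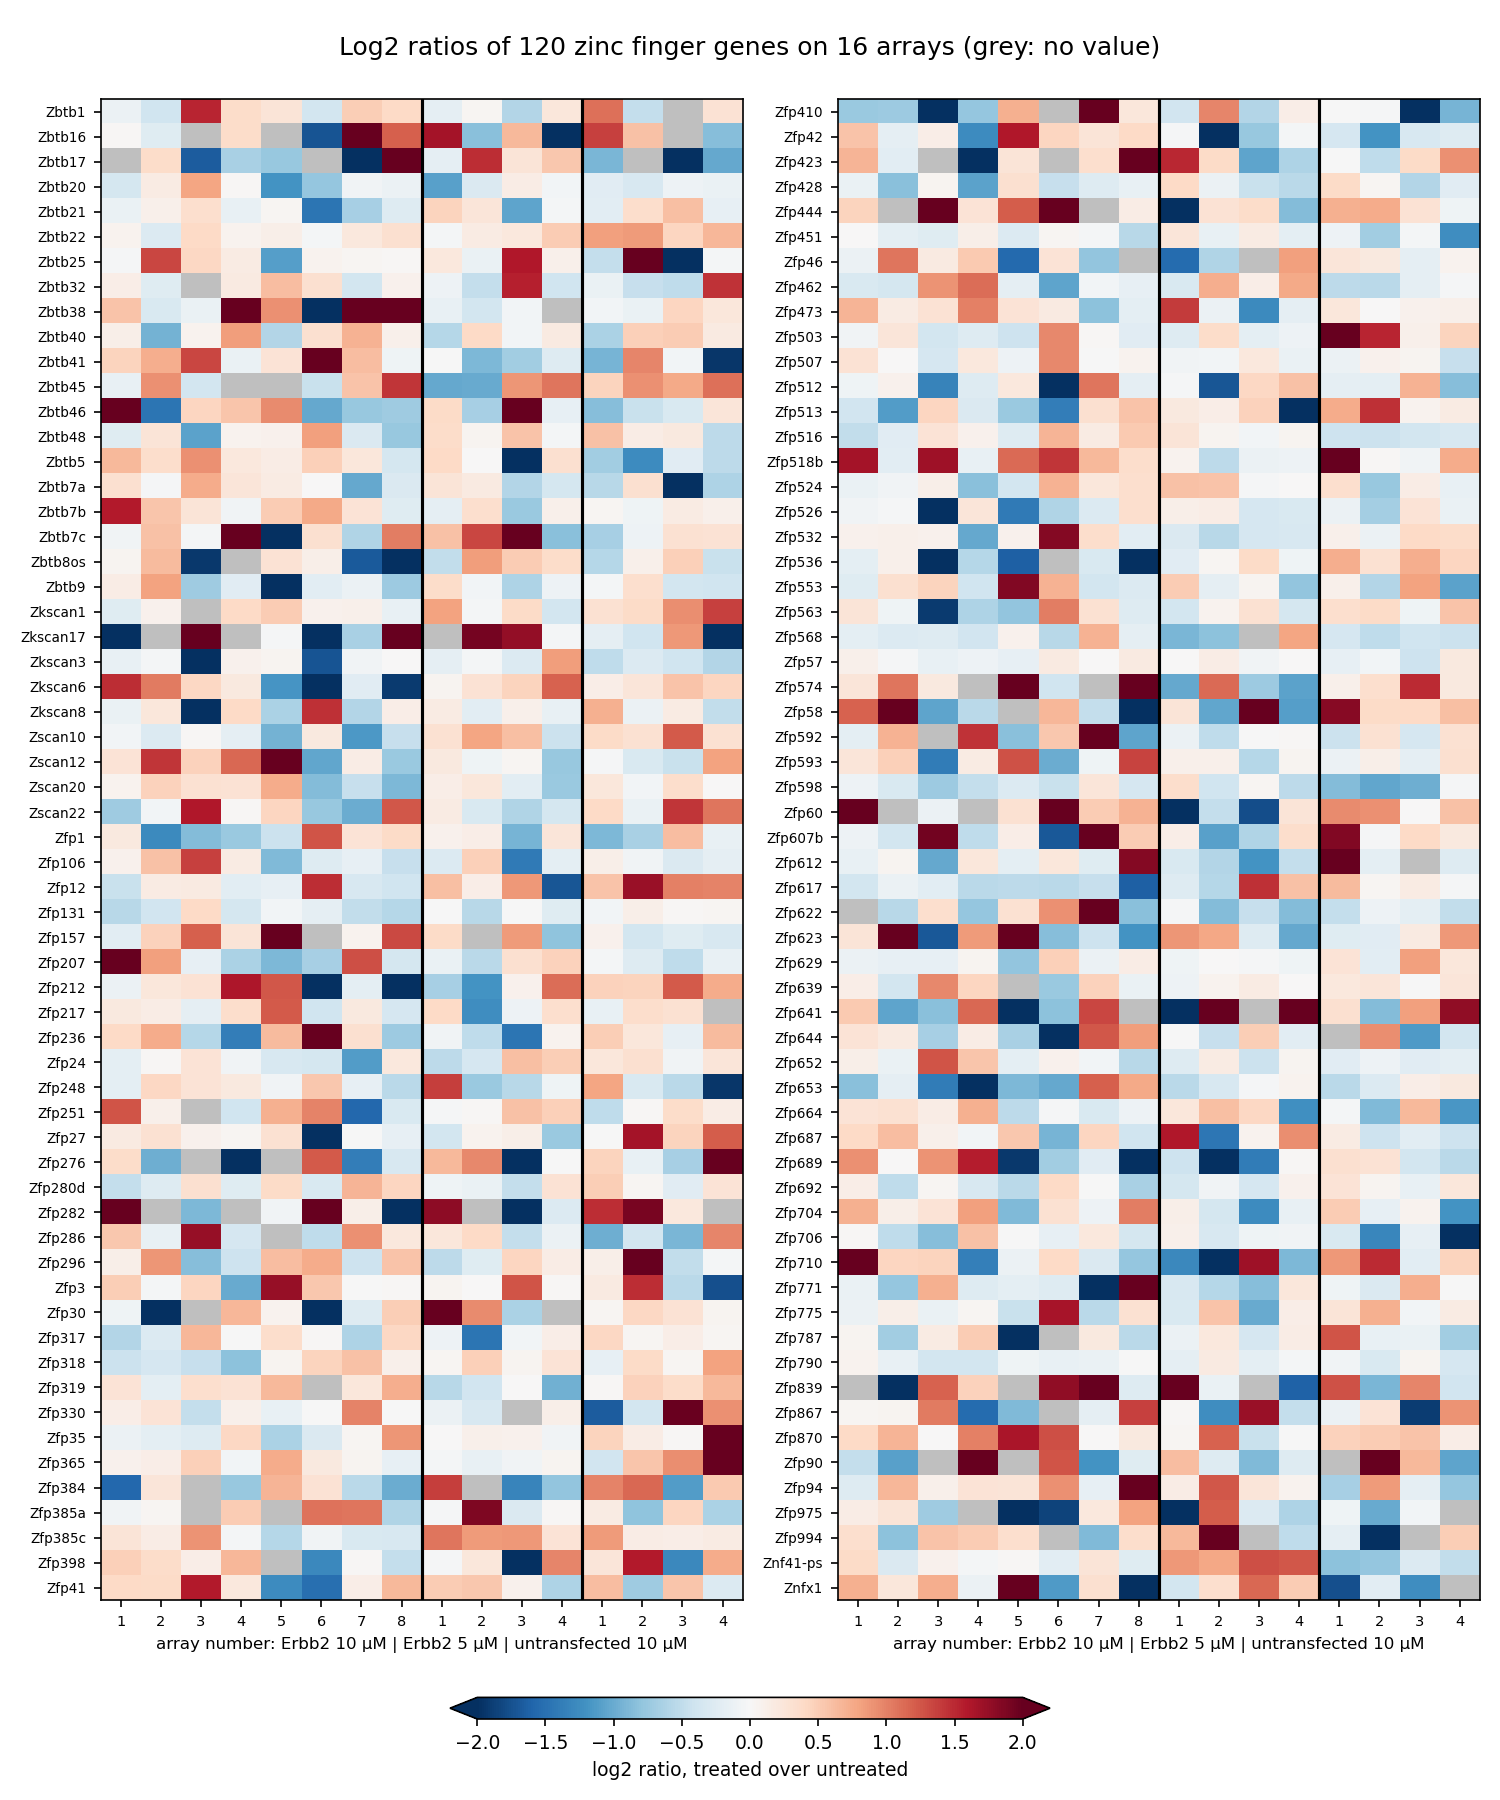
Log2 ratio of treated over untreated cells for each of the 120 measured zinc finger genes (rows, by name class) on each of the 16 arrays (columns, in groups of 8, 4 and 4); red is higher in treated cells, blue lower, grey has no value, and colours end at 2 in size. Rows that keep one colour across a group number 3 in Erbb2 cells at 10 µM, and Znf41-ps at 5 µM and Zbtb22 in untransfected cells are among those of the other groups.

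In Erbb2-transfected cells at 10 µM, 0 of the 120 zinc finger genes passed limma's test, where 1.26% of all features did. At an unadjusted p under 0.05 there were 14 members, 10 higher and 4 lower, or 11.7% against 10.8% of all features. The lowest p belonged to Zfp536, a repressor of neuronal differentiation, and the next to Zfp870. Only 3 members kept one sign on all of their arrays: Zfp444 and Zfp870 were higher and Zfp617 was lower, or 1.67% and 0.833% of members against 1.31% and 2.04% of all features.

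Zfp536 ranged from -2.37 to 0.11 over 7 arrays with a median of -0.565. Arrays 3, 5 and 8 read -2.37, -1.63 and -2.14, the other 4 lay between -0.565 and 0.11, and both dye arrangements held low values. The fitted ratio was -1.03 ± 0.28 with an adjusted p of 0.121. Zfp870 lay between 0.01 and 1.63 on the 8 arrays with a median of 0.54. No array was below 0, and 2 were close to it. Its fitted ratio was 0.66 ± 0.21 with an adjusted p of 0.211.

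Zfp617, as the average of its 2 probes, was lower on all 8 arrays, from -1.63 to -0.12 with a median of -0.49. Its fitted ratio was -0.55 ± 0.21 (adjusted p 0.344). The probes gave means of -0.70 and -0.46, and neither was lower on every array. The first read 0.21 on array 5 and had no value on array 3, and the other read 0.21 on array 4 and 0.10 on array 6. Zfp444 was higher on all 6 arrays with a value, from 0.15 to 6.78 with a median of 0.82. Its fitted 1.93 ± 0.74 (adjusted p 0.359) includes array 3 at 6.78, with the other 5 arrays at 2.74 or less. Of the other members at an unadjusted p under 0.05, 2 were lower, Zfp653 at -0.78 (adjusted p 0.427) and Zfp131 at -0.28 (adjusted p 0.443). The rest were higher, among them Zfp518b at 0.82, Zbtb7b at 0.45, Zfp157 at 1.14, Zfp574 at 1.26, Zfp319 at 0.35 and Zbtb41 at 0.72, with adjusted p from 0.310 to 0.424. The 2 averaged probes of Zfp518b gave 1.28 ± 0.47 and 0.36 ± 0.32, and on array 5 they read 3.42 and -1.14. Zbtb7b, also called ThPOK, directs T cells to the helper lineage.

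At 5 µM in the same cells, Znf41-ps rose and was the only one of the 120 members called, in a comparison where 0.209% of all features passed. The arrays labelling treated RNA with Cy5 read 0.87 and 0.78, and those using Cy3 read 1.29 and 1.24. All 4 were higher, so the gene was above 0 in both dye arrangements. The fitted ratio was 1.04 ± 0.16, or 2.06-fold, with an adjusted p of 0.0271. At 10 µM the same probe lay between -0.29 and 0.38 on 8 arrays, all below the 5 µM arrays, with a fitted -0.01 ± 0.11. In untransfected cells it read -0.82, -0.78, -0.28 and -0.48, a fitted -0.59 ± 0.16 that missed the threshold (adjusted p 0.0772).

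Znf41-ps is a pseudogene, so no protein is expected from it, and it lies among others: 9 of the 10 nearest RefSeq entries, 5 on each side, are pseudogenes, and 0 of the 10 have a probe here. Whether the probe also bound RNA of near-identical copies was not tested, and the value is uncertain for that reason. The call ended without any one of the 4 arrays at 5 µM and without array 2 at 10 µM (adjusted p between 0.0540 and 0.185), and with the 4 untransfected arrays left out of the model (0.0939, an alternative added after seeing the data). It also ended with the 5 µM arrays fitted alone (0.700), with features of only 2 values per group admitted (0.0705) and with no array turned, where the ratio was -0.22 (adjusted p 1). Its ratio over the fits that leave out 1 array was 0.99 to 1.11.

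The next member at 5 µM was Zfp385c, which read 1.07, 0.86, 0.87 and 0.27. All 4 arrays were higher, and the fitted 0.77 ± 0.19 had an adjusted p of 0.189. At an unadjusted p under 0.05 there were 6 members (5%, against 6.33% of all features): beside these 2 they were lower, namely Zfp319 at -0.47, Zfp60 at -1.32, Zfp42 at -0.88 and Zfp689 at -1.15. Their adjusted p ran from 0.646 to 0.755. Zfp689 averages 2 probes that disagreed, reading -4.805 and -0.75 on array 2 and 0.395 and -3.21 on array 3. Behind these members by p were Zfp710 at -1.13 ± 0.68, Zbtb5 at -0.81 ± 0.50, Zfp994 at 0.93 ± 0.61 and Zfp317 at -0.37 ± 0.26. None of them had an adjusted p below 0.967. One sign on every array was kept by 6 members higher and 7 lower, that is 5% and 5.83% of members against 8.3% and 10.2% of all features.

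In untransfected NIH3T3 cells at 10 µM, Zbtb22 rose and was the only member called, where 2.73% of all features passed. Zbtb22 is a BTB zinc finger gene of the major histocompatibility region. It read 0.82 and 0.85 on the arrays labelling treated RNA with Cy5 and 0.43 and 0.67 on those using Cy3, all higher. The fitted ratio was 0.69 ± 0.16, or 1.62-fold, with an adjusted p of 0.0248. In Erbb2 cells its arrays lay between -0.28 and 0.40 at 10 µM and between -0.04 and 0.50 at 5 µM, so the 10 µM arrays of the lines did not overlap. A further Zbtb22 probe, with 9 values, was not kept and says nothing on the untransfected cells, where it had 1 value.

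The sign of Zbtb22 depends on the doubtful dye labels: with the treated RNA of the untransfected cells in the other dye, it is -0.69 at the same adjusted p. The call ended without array 1, array 2 or array 4 of its group, with adjusted p of 0.132, 0.138 and 0.0849, and the ratio stayed between 0.63 and 0.79 in the fits that leave out 1 array. It also ended with the untransfected arrays fitted alone (0.244), with features of only 2 values per group admitted (0.0509) and with no array turned, where the ratio was 0.14 and not called.

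Behind Zbtb22 came members that missed the threshold. Zfp503, a developmental repressor, read 2.12 and 1.52 where Cy5 labelled the treated RNA and 0.10 and 0.45 where Cy3 did. All 4 were higher, but the dye arrangements were far apart, and the fitted 1.05 ± 0.28 had an adjusted p of 0.0727. Zfp598, a ubiquitin ligase that senses collided ribosomes, read -0.87, -1.04, -0.97 and -0.02, so 3 arrays were close together and array 4 lay near 0 (fitted -0.73 ± 0.21, adjusted p 0.0930). Zkscan1 was higher on all 4 arrays, from 0.30 to 1.37, with a fitted 0.74 ± 0.23 (adjusted p 0.130), while a further Zkscan1 probe, not kept for its missing values, read -1.66 and -2.08 on the 2 arrays where it had one. Zfp706, as the average of its 2 probes, was lower on all 4, from -2.43 to -0.16, with a fitted -1.05 ± 0.31 (adjusted p 0.112). One probe read -0.31, -1.49, 0.285 and -4.47. The other had no value on array 1 and read -1.12, -0.605 and -0.39 on the rest. Zbtb7a, a repressor of fetal globin also called LRF, was at -1.29 ± 0.44 (adjusted p 0.200). Its array 3 was at -4.29 and the others between -0.62 and 0.31.

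The largest fitted ratio of a member in these cells, 1.79 for Zfp365, includes array 4 at 6.05, and the others read -0.38, 0.56 and 0.93. A further Zfp365 probe, not kept for its missing values, averaged 0.26 in these cells. At an unadjusted p under 0.05 there were 13 members, 8 higher and 5 lower, or 10.8% against 11.5% of all features. One sign on every array was kept by 21 members higher and 18 lower, 17.5% and 15% of members against 12.2% and 13.3% of all features. Among the higher ones were Zscan10, Zfp536 and Zfp870, and among the lower ones Zfp42, Zkscan3 and Zbtb17.

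**Figure D3:**
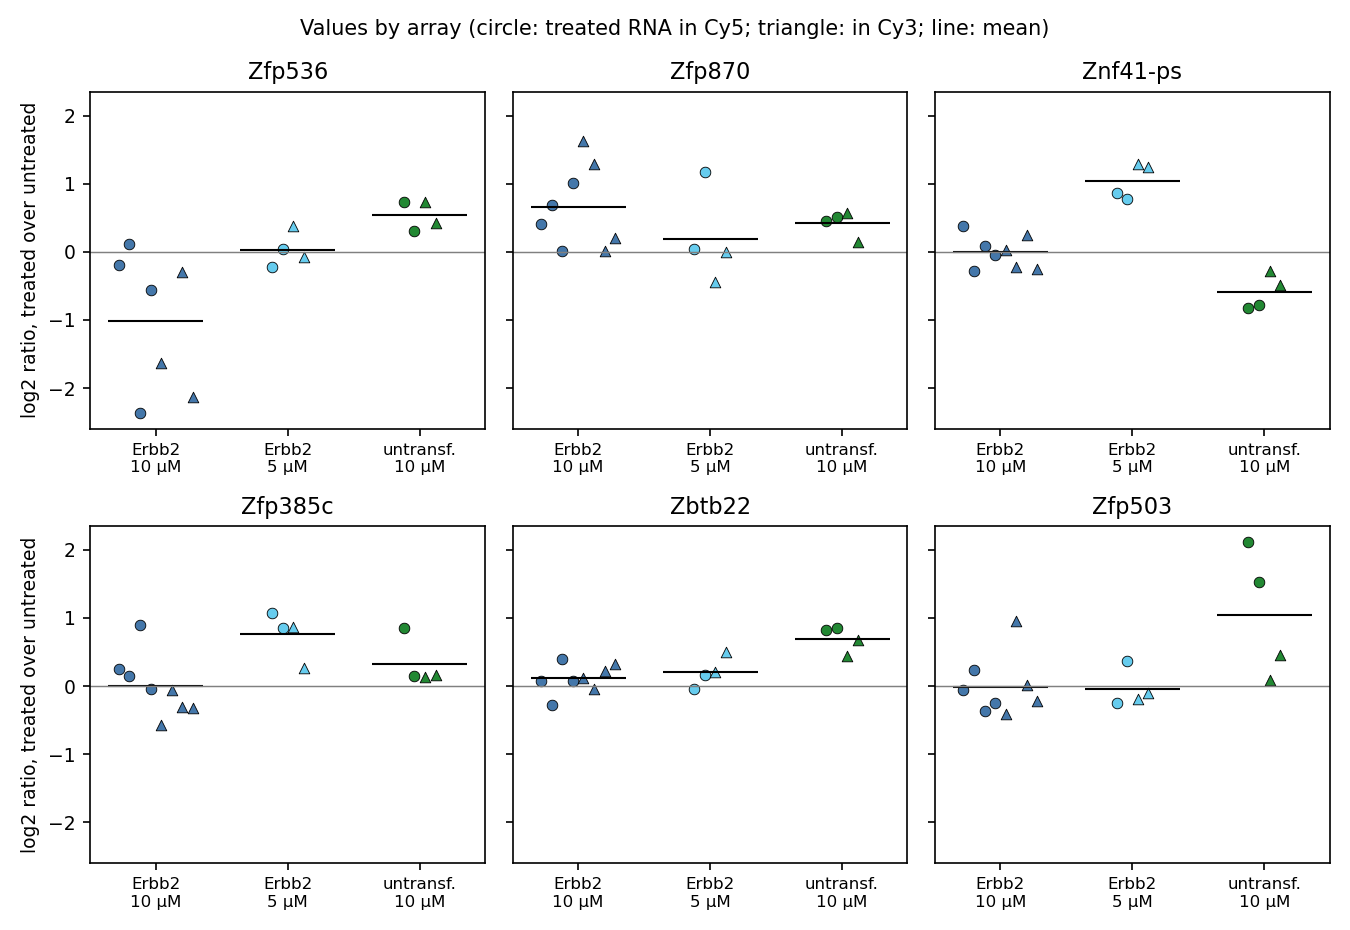
Log2 ratio on each array for 6 zinc finger genes in Erbb2 cells at 10 µM (dark blue), Erbb2 cells at 5 µM (light blue) and untransfected cells at 10 µM (green); circles have the treated RNA in Cy5, triangles in Cy3, and lines are group means. Znf41-ps at 5 µM (0.78 to 1.29) lies above every array of the other groups, and Zbtb22 in untransfected cells (0.43 to 0.85) lies above every Erbb2 array at 10 µM, while Zfp503 splits by dye.

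The difference between concentrations in Erbb2 cells, 10 minus 5 µM, was called for 0 of the 120 members and for 0% of all features. At an unadjusted p under 0.05 there were 10 members, 8.33% against 4.33% of all features, 5 in each direction. Znf41-ps had the lowest p, a difference of -1.05 ± 0.20 with an adjusted p of 0.682, and it was the only member whose arrays did not overlap between the concentrations, which held for 0.644% of all features. Next by p came Zfp319 at 0.82 ± 0.24, Zfp385c at -0.77 ± 0.23 and Zfp60 at 2.36 ± 0.72, each with an adjusted p of 0.998. Then followed Zfp42 at 1.13 ± 0.46, Zfp617 at -0.85 ± 0.36, Zfp536 at -1.06 ± 0.46 and Zfp444 at 2.69 ± 1.16, at the same adjusted p. The 95% interval of the difference lay within 1 of 0 for 30 members (25%), so for most members a difference of that size between the concentrations was not bounded.

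The difference between lines at 10 µM, Erbb2-transfected minus untransfected, was called for 0 of the 120 members, where 0.813% of all features passed. There were 10 members at an unadjusted p under 0.05, 4 higher and 6 lower, 8.33% against 9.72% of all features. As labelled, the higher ones included Znf41-ps at 0.58 ± 0.20, Zbtb7a at 1.31 ± 0.54 and Zfp706 at 0.92 ± 0.38, with adjusted p from 0.281 to 0.435. Among the lower ones, besides those described below, was Zkscan1 at -0.64 ± 0.28 (adjusted p 0.486). The arrays of the lines did not overlap for 4 members, Zbtb22, Zfp536, Zfp617 (as the average of its 2 probes) and Zscan10, or 3.33% against 2.99% of all features. With the untransfected cells' treated RNA in the other dye, an alternative applied to these values after seeing the data, 7 members did not overlap (5.83% against 4.42%), Zbtb22 among them but not Zfp536, Zfp617 or Zscan10. Zfp536 differed by -1.57 ± 0.46 (adjusted p 0.196): in untransfected cells it read 0.72, 0.30, 0.73 and 0.43, all above the Erbb2 arrays at 10 µM. Zscan10, a gene of pluripotent cells, read 0.38, 0.30, 1.22 and 0.30 in untransfected cells and between -1.14 and 0.19 in Erbb2 cells at 10 µM. The difference was -0.91 ± 0.31 (adjusted p 0.277). The differences of Zbtb22 (-0.58 ± 0.19) and Zfp503 (-1.06 ± 0.35) both had an adjusted p of 0.266. In the other dye the differences were -0.48 for Zfp536 (adjusted p 0.795), 0.20 for Zscan10 (0.889), 1.04 for Zfp503 (0.190) and 0.80 for Zbtb22 (0.0321), the last called together with Zfp598 at -1.03 (0.0417), where 2.83% of all features passed. The interval lay within 1 of 0 for 34 members (28.3%).

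Several members are measured by more than 1 probe, and their probes did not always agree. For the 25 genes with several kept probes, the median gap between probe means was 0.38 with 10 µM and 0.46 with 5 µM in the Erbb2 line and 0.41 in the untransfected line, and it was over 1 for 4, 2 and 5 genes. When each probe was tested alone (14813 probes, 151 of members), the untransfected cells gave 3 called member probes, one each of Zbtb22, Zfp12 and Zfp451, where 2.99% of all probes passed. The comparison of lines gave 2, Zfp12 and Zfp451, where 0.986% passed, the 5 µM cells gave Znf41-ps again, where 0.108% passed, and Erbb2 cells at 10 µM gave 0, where 1.19% passed.

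One Zfp12 probe read 1.95, 2.89, 1.72 and 1.99 in untransfected cells. All 4 arrays were about 2 above 0 in either dye arrangement, with a fitted 2.14 ± 0.27 and an adjusted p of 0.000467. In Erbb2 cells it lay between -0.45 and 1.40 at 10 µM and between 0.54 and 1.03 at 5 µM (0.78 ± 0.27, adjusted p 0.497), and the difference between lines was -1.99 ± 0.33 with an adjusted p of 0.00856. The other Zfp12 probe gave 0.01 ± 0.59 in the same untransfected cells, from -0.81 to 0.58. Zfp12 is a KRAB zinc finger gene, and the average of its probes was 1.07 ± 0.38 with an adjusted p of 0.216.

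One of 3 probes for Zfp451, a SUMO ligase, went the other way. It read -1.39, -3.33 and -3.49 on the 3 untransfected arrays with a value, with a fitted -2.80 ± 0.36 (adjusted p 0.000774) and a difference between lines of 2.33 ± 0.42 (adjusted p 0.0178). The other probes of Zfp451 stood at 0.30 ± 0.16 and 0.20 ± 0.21, a gap of 3.04 from end to end, the widest of any member. Both single-probe values in untransfected cells passed without each untransfected array that holds a value in turn, 4 for Zfp12 (adjusted p 0.00229 to 0.00628) and 3 for Zfp451 (0.000401 to 0.0177). Both missed when the untransfected arrays were fitted alone (adjusted p 0.213 and 0.268). The Zfp451 difference between lines passed in 1 of its 3 fits and missed without array 2 (adjusted p 0.104) or array 4 (0.147). The probe sequences were not used here, so which transcript each probe binds was not tested, and the sign of both follows the doubtful dye labels: in the other dye the differences between lines were 2.28 for Zfp12 and -3.28 for Zfp451 (adjusted p 0.000765 and 0.000425), and with no array turned the untransfected values were 0.28 and -0.12 and not called.

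**Figure D4:**
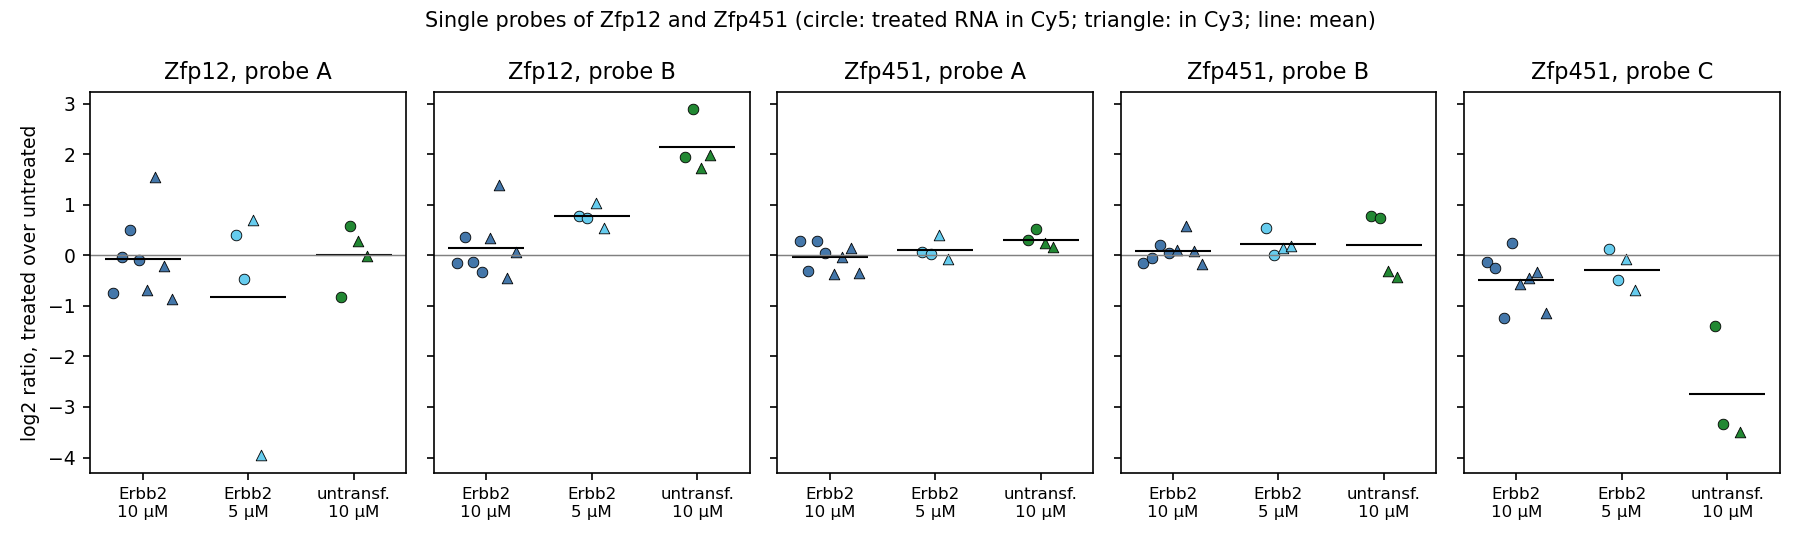
Log2 ratio on each array for the 2 probes of Zfp12 and the 3 probes of Zfp451, by group, with circles for treated RNA in Cy5, triangles for Cy3 and lines for group means. In untransfected cells one Zfp12 probe reads 1.72 to 2.89 while the other lies around 0.01, and one Zfp451 probe reads -3.49 to -1.39 while the others lie at 0.30 and 0.20.

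Of 24 members and relatives chosen for their known roles, 13 had a probe and 12 were measured, and none of these was called in any group. Zfp57, which keeps the methylation of imprinted genes, was the most tightly measured member: between -0.16 and 0.18 at 10 µM, between -0.08 and 0.15 at 5 µM and between -0.42 and 0.19 in untransfected cells. Its 95% interval ran from -0.21 to 0.22 at 10 µM, and from -0.42 to 0.19 in untransfected cells. Zbtb38, which binds methylated CpG, was spread more widely, between -1.99 and 3.93 on the 8 arrays at 10 µM with a median of 0.74. It exceeded 2 on 3 arrays, its fitted 1.12 ± 0.52 had an adjusted p of 0.459, and it lay between -0.37 and 0.43 on all arrays of the other groups. Zfp42, a marker of pluripotent cells also known as Rex1, was lower on the 4 arrays at 5 µM (-0.03, -2.72, -0.76 and -0.03) and on the 4 untransfected arrays (-0.33, -1.20, -0.32 and -0.25), without passing the test (adjusted p 0.702 and 0.756).

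The standard errors of Zbtb17, Zbtb16 and Zfp423 lay above the members' median, which was 0.28 at 10 µM and 0.38 in each other group. Zbtb17, the Myc partner Miz1, was at -0.66 ± 0.54 at 10 µM and 0.52 ± 0.66 at 5 µM in Erbb2 cells, and at -1.53 ± 0.78 in the untransfected line, where a further probe that was not kept averaged 0.24. Zbtb16, the stem cell factor PLZF, was at 0.36 ± 0.57, -0.23 ± 0.70 and 0.29 ± 0.82. Zfp423, which commits cells to the fat lineage, was at 0.54 ± 0.59, 0.05 ± 0.72 and 0.19 ± 0.72. Zbtb20, Zfp217 and Zkscan3, a repressor of autophagy genes, had fitted values between -0.49 and 0.21 over the 3 groups. A further Zfp217 probe, not kept for its missing values, read 1.41, 3.88, -0.36 and 2.41 on the untransfected arrays. A further Zbtb20 probe, also not kept, averaged -0.72 at 10 µM in Erbb2 cells.

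The partners of these proteins were few on the array. Of 20 listed partners of KRAB proteins 10 were measured and 0 passed in any group, with medians of 0.01 at 10 µM and -0.06 at 5 µM in Erbb2 cells and -0.12 in the untransfected line. Trim28 was at 0.54 ± 0.41, -0.41 ± 0.57 and -0.44 ± 0.57. Of 19 listed partners of BTB proteins 8 were measured, with medians of 0.07, 0.11 and -0.34. Tbl1x, a subunit of the Ncor complexes, fell by 0.86 in untransfected cells (arrays at -1.25, -0.995, -0.24 and -0.95, standard error 0.16, adjusted p 0.00672) and differed between lines by 0.92 ± 0.20 (adjusted p 0.0431), or by -0.80 ± 0.20 (adjusted p 0.0393) with the untransfected cells' treated RNA in the other dye.

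Other transcription factors with fingers of this kind, outside the naming rule, included larger responses. Of 80 listed, 37 were measured, and 3 passed in untransfected cells: the growth factor response gene Egr1 at 2.73 ± 0.31, Ikzf5 at 0.98 ± 0.19 and the pluripotency and epithelial factor Klf4 at -1.18 ± 0.15, with adjusted p of 0.000279, 0.0126 and 0.000396. Egr1 and Klf4 also differed between lines, by -3.48 ± 0.39 and 1.21 ± 0.18 (adjusted p 0.000465 and 0.00385). With the untransfected cells' treated RNA in the other dye, both differences changed sign, to 1.98 ± 0.39 and -1.16 ± 0.18 (adjusted p 0.0106 and 0.00144), and Ikzf5 was called at 1.33 ± 0.24 (adjusted p 0.00621). The medians of the list were 0.01, -0.05 and 0.07, and Sp1, Ctcf, Yy1 and Bcl6 were not called in any comparison.

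Ratios of cell type markers moved beside these values in untransfected cells, and their part in the results was not tested. Of 10 fibroblast markers Fn1, Vim and Col1a2 were called lower there, at -1.63, -0.55 and -0.79, where 2.73% of all features passed. Ratios of 2 of the 10 lay above 0 in these cells, with a median of -0.41. Sparc was called higher in Erbb2 cells at 10 µM, at 0.68, where 1.26% of all features passed. Of 6 epithelial markers Krt8 was called higher in untransfected cells, and 5 of the 6 had ratios above 0, with a median of 0.69. Tyrobp of 6 blood and immune markers, Cdh5 of 3 endothelial markers and Mylpf of 4 muscle markers were called lower there, while 4 of the 6, 2 of the 3 and 3 of the 4 markers of these lists had ratios above 0, with medians of 0.21, 0.19 and 0.13. None of the marker lists gave a call at 5 µM, and the directions in untransfected cells follow the doubtful dye labels.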

How the data were processed

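The authors deposited a single table of log ratios of the 2 channels, 16 arrays by 20355 probes, read here as log2 since the base is not stated. The scanner, any background correction and the normalization: not given in the sources used here. The label protocol speaks of organs and a pool of control animals, which does not match cell lines, and was not used. Each array held 72 to 167 cells at 1 identical value above 15, read as placeholders and set to missing (1755 of 325680 cells, 16 of 3024 member cells). An array gave 16153 to 18507 ratios, and precision is limited by how many arrays a group has.

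Ratios were turned to treated over untreated by the dye label of channel 1. Probes with a value on at least 3 of 4 and 6 of 8 arrays, with both dye arrangements, were kept (14813 probes), and probes of 1 symbol were averaged. One linear model in limma 3.58.1 (R 4.3.3, version 1.17.8 of data.table) held 3 group coefficients and a dye term, with eBayes, and tests were two-sided. The dye term was called for 0 members, with 9 at an unadjusted p under 0.05. Symbols came from the platform annotation, and 142 of 142 were found in the RefSeq table (GRCm38.p6) by Entrez Gene ID. Promoters came from RefSeq. The procedure was tested on simulated data.

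Named genes were every called member, the 10 with the lowest p in each group, the 8 with the lowest p in each contrast, and 24 genes by role; members with several probes were also named where a called gene's probes lay over 1 apart, and called genes and 8 others of the lists of non-members. Members named for one sign on every array or for an extreme value were chosen after their values were seen. Members, lists and rules were chosen with earlier results of these data known. Alternatives were the direction and dye labels, placeholders, filters, single probes, scaling, array weights, prior, dye term, replicate block and arrays left out.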

Additional observations from a re-analysis of the deposited data

Results flagged for a closer look

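Of 60 sets of arrays examined for a value far from the rest, 7 had one (11.7%). A set was a named zinc finger gene in 1 group or the members' median on each array of 1 group. Chance gives about 1 in 20 for normally spread values. Over all features, without such medians, 9.98% of sets had one (16.3% in the Erbb2 line with 10 µM, 6.45% with 5 µM and 6.47% in the untransfected line). In Erbb2 cells at 10 µM, Zfp157 read 4.544 on array 5, and the nearest other array read 1.314. Zfp217 read 1.222 on the same array 5, with the nearest at 0.358, and Zfp617 read -1.628 on array 8, with the nearest at -0.545. At 5 µM, Zbtb5 read -3.959 on array 3, while its nearest neighbour was 0.001, and Zfp317 read -1.461 on array 2, with the nearest at -0.101. In untransfected cells, Zfp42 read -1.197 on array 2, with the nearest at -0.334, and Zfp598 read -0.018 on array 4, far from the other 3 arrays, the nearest of which was -0.868.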

How the results depend on the processing

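The counts of 0 called members in Erbb2 cells at 10 µM and between concentrations held under every alternative run; those below moved, and the cause was not tested. With no array turned, 0 members were called at 5 µM and 0 in untransfected cells, the members' medians were 0.0263 and 0.00625, and Znf41-ps at 5 µM turned to -0.22 (adjusted p 1) while Zbtb22 in untransfected cells was 0.14. With the untransfected dye labels exchanged, the members' median there was -0.0834, Zbtb22 turned to -0.69, 2 members were called between lines, and the Zbtb22 difference turned to 0.80 (adjusted p 0.0321). Requiring values on all 16 arrays, which tests fewer features, gave 2 members at 5 µM and 4 in untransfected cells; requiring only 2 per group gave 0 and 0. Scaling the arrays gave 2 and 2, array weights 2 and 3, and each group fitted on its own arrays 0 and 0. Single probes gave 3 in untransfected cells and 2 between lines. Leaving out the 3 widest arrays gave 2 in untransfected cells, and leaving out the untransfected arrays gave 0 at 5 µM. For most of these fits the share of all features called is not given here. The counts therefore do not tell a change of the members from a change over the whole array. Members called in some alternative and not in the report's fit were Zfp385c at 5 µM and Zfp503, Zfp598, Znf41-ps, Zfp12 and Zfp451 in untransfected cells, and Zbtb22 and Zfp598 (dye labels exchanged) and Zfp12 and Zfp451 (single probes) between lines.

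Without 1 array at a time, the count ran from 0 to 1 at 5 µM (0 without any 5 µM array or array 2 at 10 µM) and from 0 to 2 in untransfected cells (0 without untransfected array 1 or 2; 2 without untransfected array 3 or 10 µM array 6), and was 0 in each other comparison. These counts too stand without the share of all features called in the same fit. The members' medians ran from 0.01 to 0.06 at 10 µM, from -0.07 to -0.04 at 5 µM and from 0.06 to 0.10 in untransfected cells. Same-numbered arrays did not deviate together (3 of 10 pairs had r over 0.1), and a random replicate block (consensus correlation 0.0710) left 0, 1 and 1 members called in the groups and 0 in both contrasts. Signal over background is unknown, and the spread between arrays leaves a doubling or halving unbounded for 49 to 74 of the 120 members by group.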
